A study of Mus musculus with 3 samples.

Results

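The CpGs around 9 genes for basic helix-loop-helix (bHLH) transcription factors were followed in wild type, Dnmt3a KO and Dnmt TKO embryonic stem (ES) cells. The genes, Neurog1, Neurog2, Neurog3, Neurod1, Neurod2, Ascl2, Olig1, Olig2 and Atoh1, were listed together as neural lineage regulators. Of these, Ascl2 is a factor of trophoblast and intestinal stem cells. The list holds 9 of the 22367 protein-coding genes of the annotation used (GENCODE vM1, mm9). The genes were given by name, and their CpGs were taken by position: every CpG within 5000 bp of the gene start or inside the gene that had more than 10 reads. ES cells are pluripotent cells derived from mouse blastocysts. Methylation was measured by reduced-representation bisulfite sequencing (RRBS), in which genomic DNA is cut with MspI at CCGG, short fragments are selected and unmethylated cytosines are converted, so that each read scores a CpG as methylated or not. The measurement compares cells with DNMT3A, without it, and without DNA methyltransferase activity.

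Each genotype was represented by 1 library, and differences between genotypes have no replicate check. Wild-type cells came from blastocysts of mixed 129-C57Bl/6 background and were grown on feeder cells or on gelatine. Dnmt3a KO cells had the same background, were grown on gelatine, and had lost Dnmt3a, including both of its isoforms, by CRISPR/Cas9. Which clone was sequenced is not given in the sources used here. Dnmt TKO cells, which lack DNA methylation in the study's own description, were of strain J1 and were grown on gelatine. All cultures contained serum and LIF. Genotype, strain, growth surface and library preparation cannot be told apart in these data.

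Proneural bHLH factors bind E-box DNA as dimers with ubiquitous E proteins and drive progenitors out of the cell cycle into neuronal or glial fates. They are held back by Id proteins, which sequester E proteins, and by Hes and Hey repressors downstream of Notch. In ES cells such lineage regulators are mostly silent, and their gene starts commonly lie in CpG islands that carry Polycomb marks and little DNA methylation. DNMT3A is a de novo DNA methyltransferase, and the DNA next to a CpG island is called its shore.

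Within the 9 windows of 10001 bp, CpG-rich sequence is called core here, and the rest of the window flank. Core is the union of all 500-bp windows of the mm9 sequence with at least 55% G and C and an observed-to-expected CpG ratio of at least 0.65. The 9 windows held 2601 CpGs, of which 1568 were core and 1033 flank, and their core came to 22888 bp. Because RRBS starts from MspI sites, only part of these CpGs was seen. The site, CCGG, reads the same on both strands and contains a CpG, and 98.4% of the equally long windows around all gene starts held at least 1. The 9 windows held between 21 and 47 each, with a median of 27, beside a median of 13 over all genes.

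The stretches below were chosen, after their values were seen, to show where methylation of these genes was found and, before the start of Neurod1, where it was not. All are from mm9 and are written 5′ to 3′ along the strand of the gene, with the CpGs that had more than 10 reads in both wild type and Dnmt3a KO in capitals. Positions such as -2235 count bases from the gene start along the gene. Neurod1 is shown at a CpG-rich stretch upstream (chr2:79299053-79299143, minus strand, -2235 to -2145) and just before its start (chr2:79296909-79296968, minus strand, -60 to -1). Neurod2 is shown just before its start (chr11:98190963-98191032, minus strand, -70 to -1) and in its 5′ UTR (chr11:98190932-98190961, minus strand, 1 to 30). Neurog3 is shown in its 3′ UTR (chr10:61597276-61597305, plus strand, 1438 to 1467) and Ascl2 in its upstream flank (chr7:150155679-150155729, minus strand, -560 to -510).
Neurod1 upstream: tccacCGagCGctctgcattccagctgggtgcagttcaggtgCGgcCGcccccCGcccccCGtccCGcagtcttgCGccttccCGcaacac
Neurod1 start: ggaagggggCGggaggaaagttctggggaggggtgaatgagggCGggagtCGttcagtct
Neurod2 start: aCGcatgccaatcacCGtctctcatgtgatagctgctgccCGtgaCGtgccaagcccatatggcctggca
Neurod2 5′ UTR: agaggctggtacccCGcctggtagagatgc
Neurog3 3′ UTR: tgttCGtCGtctttactgccCGctacatgc
Ascl2 upstream: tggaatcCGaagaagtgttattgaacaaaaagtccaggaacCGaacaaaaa

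In these stretches, 69 of 712 reads were methylated at the 9 upstream CpGs of Neurod1 in wild type and 4 of 171 in Dnmt3a KO. At the 3 CpGs before its start, 0 of 81 and 0 of 46 reads were methylated. The 4 CpGs before the start of Neurod2 had 24 of 270 methylated reads in wild type and 6 of 127 in Dnmt3a KO, with an interval of the difference that includes 0 (-8.90 to 1.76 percentage points). The single CpG of the Neurod2 5′ UTR stretch, shown for its high value in wild type, had 23 of 94 methylated reads in wild type, 1 of 43 in Dnmt3a KO and 0 of 22 in Dnmt TKO. The 3 CpGs of the Neurog3 stretch had 20 of 72 in wild type and 1 of 45 in Dnmt3a KO. The 2 CpGs of the Ascl2 stretch had 19 of 67 in wild type and 13 of 29 in Dnmt3a KO. The interval of the difference lay under 0 upstream of Neurod1, at this Neurod2 CpG and in the Neurog3 3′ UTR. It included 0 before the starts of Neurod1 and Neurod2 and upstream of Ascl2. The Neurod1 upstream stretch is from the fragment of this gene with the most methylated wild-type reads. The Neurog3 stretch is from its flank fragment with the largest drop, and leaves out that fragment's last CpG. Such choices lower the difference by themselves, so these intervals describe the stretches and test nothing.

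Depth sets what can be said of each library. The wild-type, Dnmt3a KO and Dnmt TKO libraries held 970329, 814188 and 431923 CpGs with more than 10 reads, with medians of 31, 18 and 13 reads. Over all of these CpGs, 17.5%, 12.8% and 0.0931% of reads were methylated. The deletion of Dnmt3a itself was not checked here. Of the promoters of the ES cell markers Pou5f1, Nanog, Sox2 and Zfp42, those with CpGs within 1000 bp of the start were nearly unmethylated in wild type, with 0 of 101 reads at Pou5f1, 5 of 6132 at Sox2 and 5 of 525 at Zfp42, and Nanog had no such CpG. Expression was not measured.

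Around the 9 genes, wild type covered 717 CpGs, Dnmt3a KO 748 and Dnmt TKO 347. This corresponds to 27.6%, 28.8% and 13.3% of the CpGs in the sequence. Coverage was concentrated in the core, where wild type covered 41.1% of the CpGs, Dnmt3a KO 44.1% and Dnmt TKO 21.9%. In the flank the shares were 6.97%, 5.42% and 0.290%. Every gene had covered CpGs in wild type and in Dnmt3a KO, from 31 CpGs at Atoh1 to 111 at Neurod2 in wild type, whereas Neurod1 had none in Dnmt TKO. No flank CpG was covered in wild type at Neurog2 and Neurod1, nor in Dnmt3a KO at Neurog1, Neurog2, Neurod1 and Olig1. In Dnmt TKO only Neurog3, with 2, and Atoh1, with 1, had flank CpGs. The flank statements that follow therefore rest on few CpGs.

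**Figure D1:**
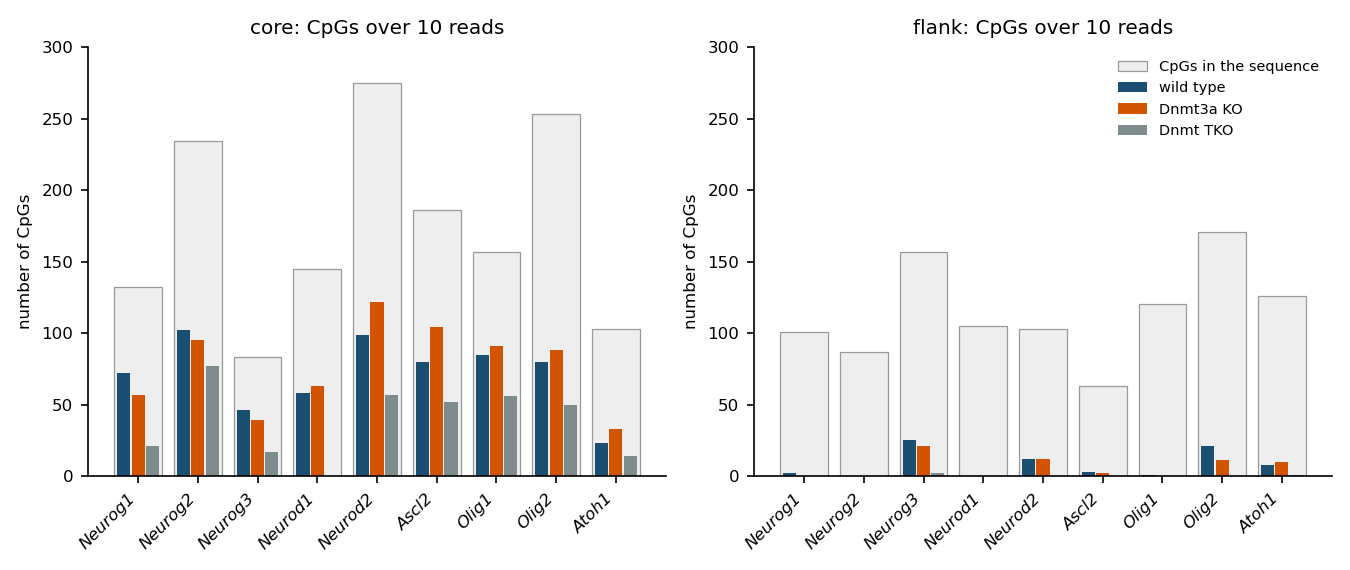
Number of CpGs (y axis) in the core (left) and flank (right) of each gene, with wide pale bars for all CpGs in the mm9 sequence and narrow bars for those with more than 10 reads in wild type, Dnmt3a KO and Dnmt TKO. Flank bars are near 0 for most genes: wild type covered 72 of 1033 flank CpGs, Dnmt3a KO 56 and Dnmt TKO 3.

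For comparisons between wild type and Dnmt3a KO, the 594 CpGs covered in both were used, 554 in core and 40 in flank, on 70 MspI fragments. Wild type had a median depth of 50 reads at these CpGs and Dnmt3a KO one of 22. A methylation level is given as methylated reads divided by all reads over the CpGs of a set. Intervals are 95% Wilson intervals for a level and Newcombe intervals for a difference. They cover counting error only and treat CpGs on the same read, and PCR copies of a read, as independent. Where no methylated read was found, the level that a count of 0 allows is given as 3 reads of the total, which is lower than the upper bound of the Wilson interval.

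The cores of the 9 genes were almost unmethylated in wild type, and their level was lower still in Dnmt3a KO. Of 31653 reads in wild type, 386 were methylated, 1.22% (1.10 to 1.35), and of 14804 reads in Dnmt3a KO, 77 were methylated, 0.52% (0.416 to 0.65). The difference was -0.699 percentage points (-0.863 to -0.526). At 389 of the 554 core CpGs, or 70.2%, no methylated read was found in either library, beside 78.4% of all shared core CpGs. The level was lower in Dnmt3a KO at 128 CpGs, or 23.1%, beside 17.0% of all core CpGs in the genome, and higher at 37, or 6.68%, beside 4.54%. The deeper wild-type library has more chances to show a methylated read at a CpG, which touches these counts.

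By gene, the core level was lower in Dnmt3a KO at 8 of the 9 genes and higher at 1. Among the 12331 genes with at least 5 shared core CpGs, 63.8% had a lower level and 19.5% a higher level. The interval of the difference lay under 0 at Neurog2, Neurog3, Neurod1 and Neurod2, which is 4 of 9 genes beside 18.9% of all genes, and over 0 at none, beside 1.78%. These calls depend on the CpGs used. With more than 20 reads the Neurog2 interval included 0 (-0.676 to 0.0639). With all CpGs of each library, shared or not, the intervals of Neurog1 (0.018 to 0.986) and Ascl2 (0.245 to 1.49) lay over 0 and that of Olig1 (-0.545 to -0.0834) under 0. At shared CpGs, none of the 9 cores was lower by 10 percentage points or more, beside 2.10% of the 12331 genes. The highest of the 9 in wild type, Neurod1, was at 5.47%, so none could drop by that much. A comparison with the 11759 genes whose wild-type core was under 10% was added after the data had been seen. Of these genes, 62.3% had a lower level, 20.2% a higher level, 15.6% an interval under 0 and 1.79% an interval over 0. The median core level in wild type was 0.628% over the 9 genes and 0.124% over these genes, and the median difference was -0.267 and -0.0597 percentage points.

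The order of the core levels in wild type ran from Neurod1 at 5.47% (4.58 to 6.53) to Neurog1 at 0.121% (0.0331 to 0.44). Neurod1 lay above Neurog3, at 2.23% (1.63 to 3.03), with no overlap of intervals. The interval of Neurog3 overlapped that of Neurod2, at 1.85% (1.56 to 2.19), at shared CpGs, but not over all CpGs that wild type covered, where Neurog3 was at 3.09% (2.42 to 3.94). Both lay above the interval of Ascl2, at 0.765% (0.515 to 1.14). Ascl2, Neurog2 at 0.628%, Olig2 at 0.609%, Atoh1 at 0.501%, Olig1 at 0.184% and Neurog1 followed, each with an interval that overlapped that of its neighbour.

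**Figure D2:**
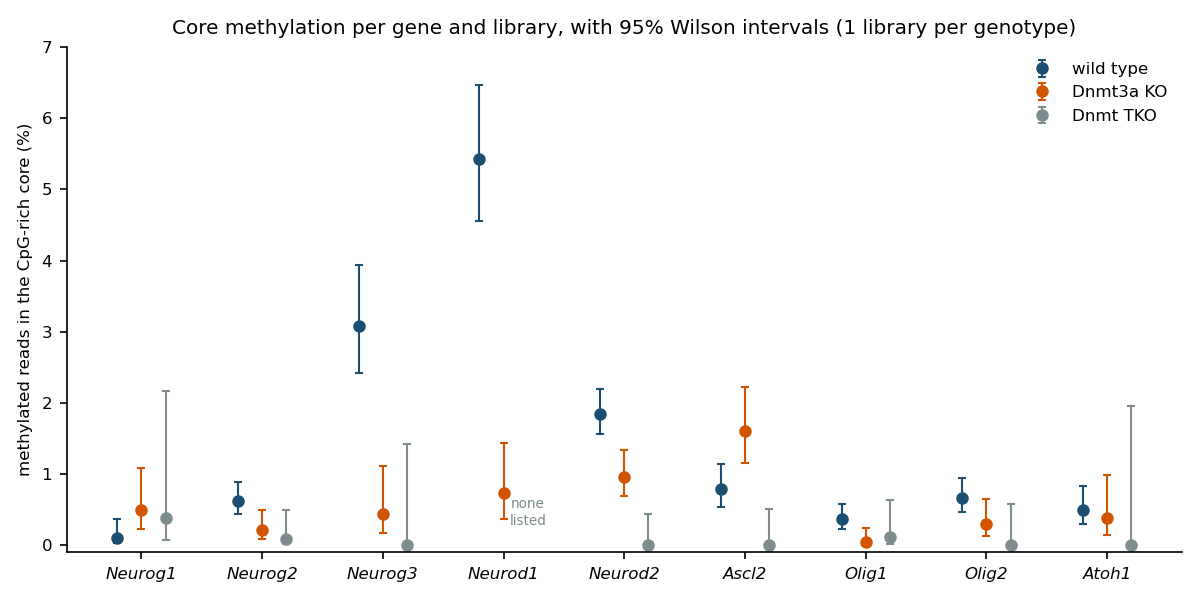
Methylated reads in the core (%, y axis) for each gene in wild type, Dnmt3a KO and Dnmt TKO, over all core CpGs with more than 10 reads in that library, whether or not the other libraries cover them; points are pooled levels of 1 library and bars 95% Wilson intervals. Neurod1 stands highest in wild type at 5.43%, and no Dnmt TKO value exceeds 0.389%.

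Of the neurogenins, Neurog1 and Neurog2 initiate neuronal fate in sensory and cortical progenitors, and Neurog3 initiates endocrine fate in the pancreas. The core of Neurog1 (chr13:56351866-56353524, minus strand) had 2 methylated reads of 1655 in wild type and 6 of 1141 in Dnmt3a KO. It was the only member with the higher pooled level in Dnmt3a KO at shared CpGs, by 0.405 percentage points with an interval that includes 0 (-0.0223 to 1.03). Neurog2 (chr3:127336054-127338549, plus strand) had 29 of 4619 and 5 of 2231, a difference of -0.404 percentage points (-0.705 to -0.0489). Its methylated reads were not at the gene start. They lay in a separate CpG-rich stretch at -5000 to -4428, with 26 of 1225 reads in wild type and 2 of 470 in Dnmt3a KO, whereas the stretch around the start held 3 of 3394 and 3 of 1761. Taken within 1000 bp of the start only, the Neurog2 difference was 0.034 percentage points.

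Neurog3 (chr10:61595838-61597511, plus strand) differs from the other members in that its gene start is not in core as defined here. This depends on the definition. With a core from 200-bp windows, its shared core CpGs went from 34 to 53 and its shared flank CpGs from 21 to 2. One core stretch lies inside the gene, at 157 to 1044, and another far upstream, at -4680 to -3996. The upstream stretch had 22 methylated reads of 238 over 11 CpGs in wild type and 1 of 55 over 5 other CpGs in Dnmt3a KO, and with no CpG covered in both libraries it enters no difference. The inner stretch had 39 methylated reads of 1750 in wild type and 3 of 868 in Dnmt3a KO, differing by -1.88 percentage points (-2.72 to -0.991). At the 17 shared CpGs upstream, which are flank, 8 of 1474 and 1 of 371 reads were methylated. In the 3′ UTR, at 1442 to 1503, methylation reached 22 of 101 reads in wild type and 1 of 56 in Dnmt3a KO (interval of the difference -29.1 to -9.66 percentage points). The highest single CpGs there, at 1445 and 1458, had 6 of 18 and 11 of 36 methylated reads in wild type and 0 of 14 and 0 of 17 in Dnmt3a KO. The first of these was also covered in Dnmt TKO, with 0 of 11. At shared CpGs of Neurog3, then, the wild-type level was higher in the coding exon than in the upstream flank and highest in the 3′ UTR, and the Dnmt3a KO level was under 2% in each.

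Neurod factors act after the neurogenins in neuronal differentiation. Neurod1 (chr2:79292678-79296908, minus strand), which is also a regulator of pancreatic beta cells, had the largest core difference of the 9 genes, with 115 of 2101 reads methylated in wild type and 8 of 988 in Dnmt3a KO, or -4.66 percentage points (-5.79 to -3.48). This level was exceeded or equalled by 3.06% of the 11759 genes under 10% in wild type, and the difference was as low or lower at 1.32%. Both shares would be higher over all 12331 genes. The genes left out, at 10% or more in wild type, all lie above this level. Among the 12331 genes, 2.10% were lower by at least 10 percentage points, a drop that no gene under 10% can show. Neurod1 has 3 CpG-rich stretches that behaved differently. The stretch around the start, -436 to 403, had 0 of 360 methylated reads in wild type, which allows a level of up to 0.833%, and 0 of 320 in Dnmt3a KO, which allows up to 0.938%. The upstream stretch, -2576 to -2011, had 85 of 1188 in wild type and 4 of 384 in Dnmt3a KO, differing by -6.11 percentage points (-7.84 to -4.03). The stretch at 1702 to 2891, in the coding exon and the 3′ UTR, had 30 of 553 and 4 of 284, a difference of -4.02 percentage points (-6.39 to -1.33). In the upstream stretch printed above, each of the 9 CpGs held methylated reads in wild type, from 4.26% to 13.2%.

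Neurod2 (chr11:98186729-98190962, minus strand), a factor of maturing neurons, showed the reverse arrangement. Its stretch around the gene start, -355 to 290, had 91 of 814 methylated reads in wild type, 11.2% (9.19 to 13.5), and 20 of 351 in Dnmt3a KO, 5.70% (3.72 to 8.64), a difference of -5.48 percentage points (-8.55 to -1.94). All 12 covered CpGs of this stretch, from -68 to 71, had methylated reads in wild type, from 2.86% at -68 to 24.5% at 16, and 10 of the 12 were also covered in Dnmt TKO, where 0 of 164 reads were methylated. The longer stretch behind it, 304 to 2878, had 38 of 6156 in wild type and 14 of 2800 in Dnmt3a KO, differing by -0.117 percentage points with an interval that includes 0 (-0.422 to 0.259). Over the other 7 genes with a CpG-rich stretch at their start, 77 of 19967 reads in these stretches were methylated in wild type and 30 of 9647 in Dnmt3a KO, or 0.386% and 0.311%.

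**Figure D3:**
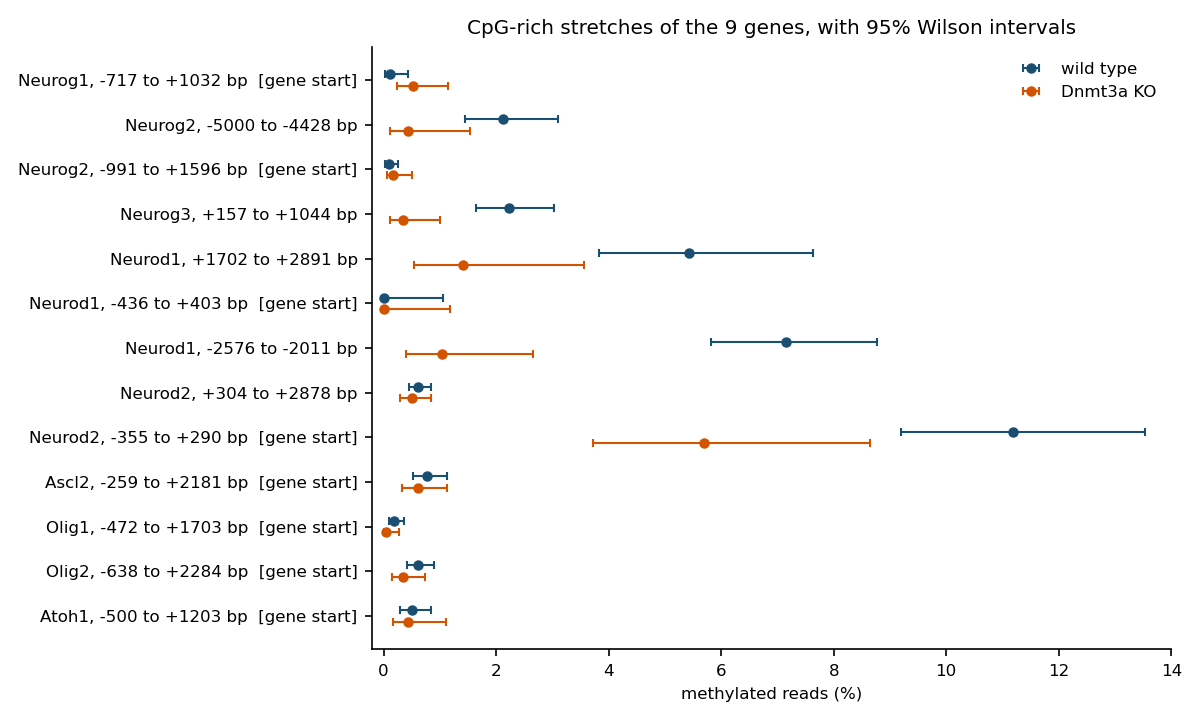
Methylated reads (%, x axis) in each CpG-rich stretch with CpGs covered in both libraries, for wild type and Dnmt3a KO; points are pooled levels of 1 library and bars 95% Wilson intervals, and each row gives the stretch's bounds in bp from the gene start, with those that hold the start marked. Of the marked stretches, that of Neurod2 stands apart at 11.2% in wild type against 5.70% in Dnmt3a KO.

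Ascl2, a factor of trophoblast and intestinal stem cells, had methylated CpGs at both ends that were not lower in Dnmt3a KO beyond counting error. Its core (chr7:150152727-150155169, minus strand) had 24 of 3137 and 10 of 1635 methylated reads, a difference of -0.153 percentage points (-0.618 to 0.415). Near the end of the gene, a CpG at 2048 in the 3′ UTR was methylated in 7 of 11 reads in wild type and 8 of 14 in Dnmt3a KO. At 3 further CpGs there, at 2057, 2060 and 2062, which did not exceed 10 reads in wild type, Dnmt3a KO had 8 of 14, 9 of 14 and 8 of 13. With these counted, so that each library is taken over all of its own CpGs, the Ascl2 core was 0.79% in wild type against 1.61% in Dnmt3a KO. Upstream, the 2 flank CpGs at -552 and -518 had 9 of 31 and 10 of 36 methylated reads in wild type and 6 of 13 and 7 of 16 in Dnmt3a KO, a joint difference of 16.5 percentage points with an interval that includes 0 (-3.71 to 36.4).

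Olig1 and Olig2, which specify oligodendrocytes and motor neurons and lie 44219 bp apart on chromosome 16, and Atoh1, which is required for cerebellar granule cells and inner ear hair cells, had little methylation in their cores. Olig1 (chr16:91270014-91272184, plus strand) had 8 of 4354 methylated reads in wild type and 1 of 2116 in Dnmt3a KO, differing by -0.136 percentage points (-0.319 to 0.101). Olig2 (chr16:91225795-91228922, plus strand) had 26 of 4272 and 6 of 1755, a difference of -0.267 percentage points (-0.604 to 0.179). Atoh1 (chr6:64679140-64681227, plus strand) had 14 of 2795 and 4 of 919, a difference of -0.0656 percentage points (-0.496 to 0.642). At these shared CpGs, none of the 3 differences was larger than counting error. With all CpGs of each library, Olig1 differed by -0.323 percentage points (-0.545 to -0.0834), and with windows of 10000 bp Olig2 differed by -1.37 percentage points (-1.99 to -0.67).

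The core difference rested largely on 3 genes. Without Neurod1 it was -0.418 percentage points (-0.573 to -0.25), and without Neurod1, Neurod2 and Neurog3 it was -0.168 percentage points (-0.309 to -0.0082), with 0.494% in wild type against 0.327% in Dnmt3a KO. Of the 70 MspI fragments, 40 had the lower level in Dnmt3a KO, 10 the higher and 20 the same. The interval lay under 0 for 7 fragments, 3 of Neurod1, 2 of Neurod2 and 2 of Neurog3, and over 0 for none. Shares over all fragments of the genome are not given here, so the fragment counts have no background.

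**Figure D4:**
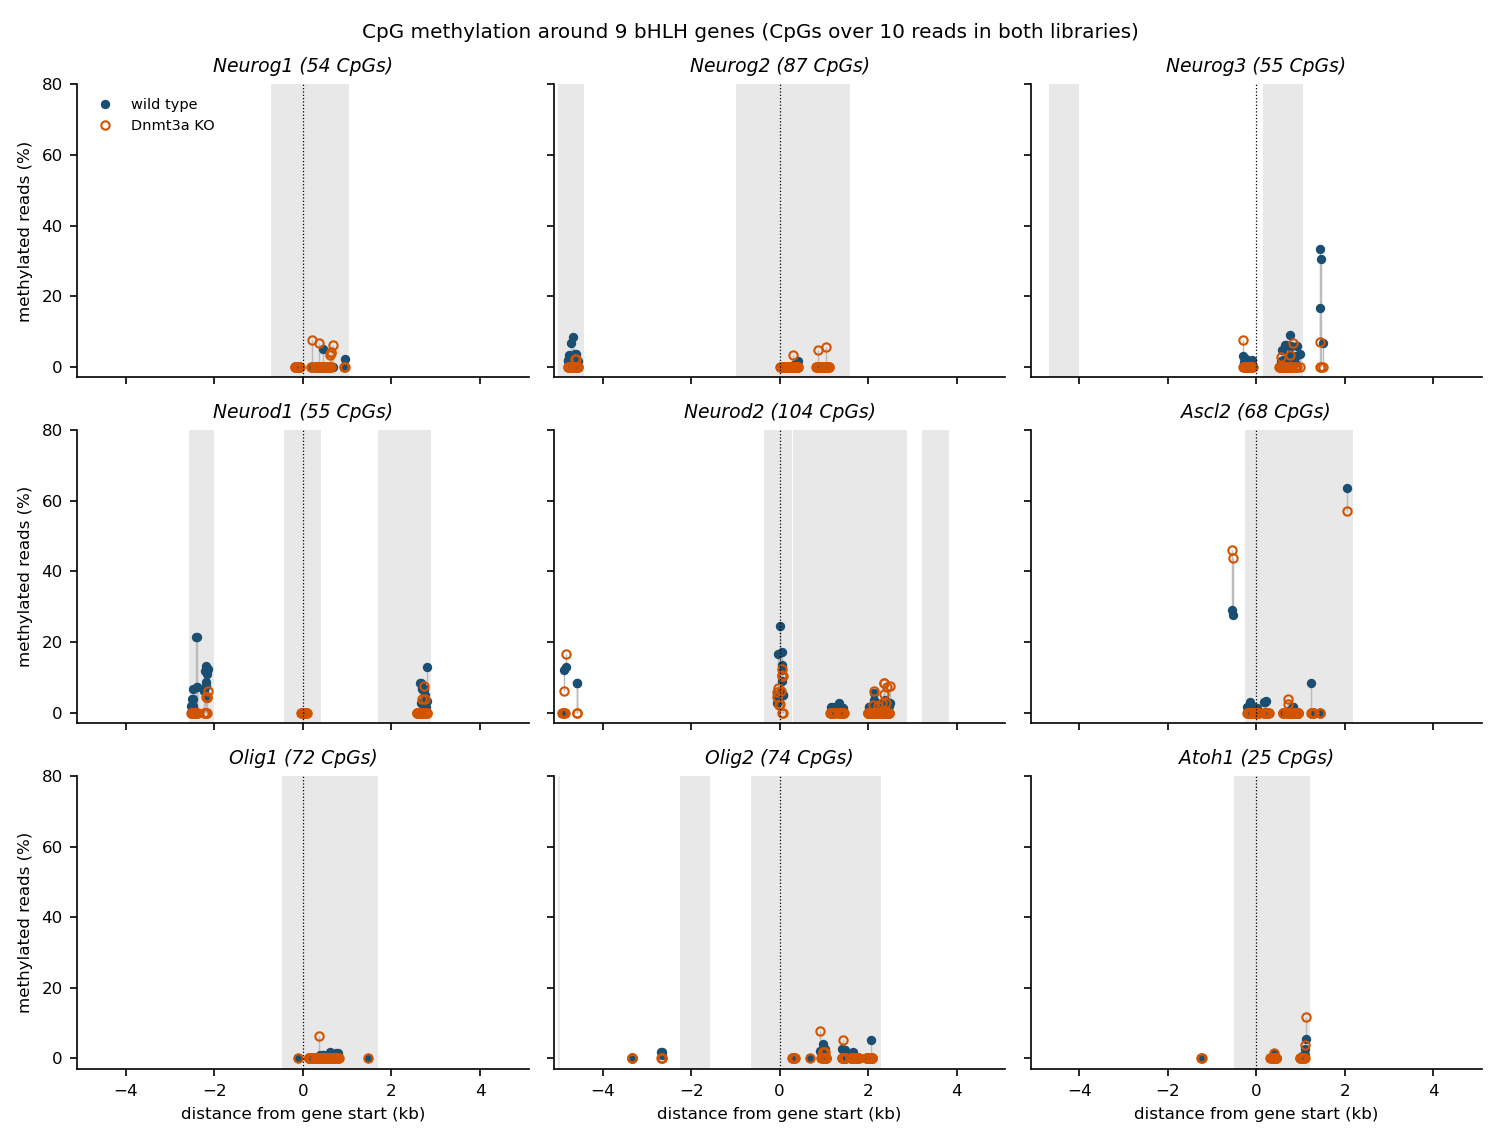
Methylated reads (%, y axis) at each CpG with more than 10 reads in both libraries against its distance from the gene start (kb, x axis, along the gene), 1 panel per gene, with filled points for wild type, open points for Dnmt3a KO, a grey line joining both, pale bands for CpG-rich core and a dotted line at the start. Most points lie at or near 0. Points apart include some upstream and downstream of the start at Neurod1, and around the start and far upstream at Neurod2. Others are in the 3′ UTR of Neurog3, at both ends of Ascl2 and in the coding exon of Atoh1.

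At single CpGs, wild type and Dnmt3a KO were compared by a two-sided Fisher's exact test, and p-values were adjusted by Benjamini-Hochberg over all 631561 shared CpGs. A CpG was called at an adjusted p under 0.05 and a difference of at least 20 percentage points. The test compares 2 libraries, not 2 genotypes. None of the 594 CpGs was called lower, beside 1.64% of all shared CpGs, and none higher, beside 0.0304%. Only 8 of the 594 stood at 20% or more in wild type, and no other could be called lower. All shared CpGs outside cores stood at 53.8% in wild type, so the 1.64% is not a like background. At an unadjusted p under 0.05, 3 of the 594 were lower and 0 higher. By size alone, 5 CpGs were lower by 20 points or more, 1 at Neurod2, 2 at Neurog3 and 2 at Neurod1, and 0 were higher. The shares of all shared CpGs that meet either condition are not given here, so these counts have no background. The smallest adjusted p by Fisher's exact test was 0.0616, for the Neurod2 CpG at 16. Among the CpGs with more than 20 reads in both libraries, of which 327114 were tested, this CpG was called, with an adjusted p of 0.0466 by Fisher's exact test.

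At shared CpGs, the flank as defined here held little methylation in either library. Over the 40 shared flank CpGs of Neurog3, Neurod2, Olig2, Atoh1 and Ascl2, 62 of 2236 reads were methylated in wild type, 2.77% (2.17 to 3.54), and 18 of 700 in Dnmt3a KO, 2.57% (1.63 to 4.03), a difference of -0.201 percentage points (-1.41 to 1.38). The 2 Ascl2 CpGs weigh against the others: without them the difference was -1.24 percentage points (-2.04 to -0.127), and without Neurog3 it was 1.02 percentage points (-1.91 to 4.74). The level was lower in Dnmt3a KO at 15 of the 40 CpGs, or 37.5%, beside 73.4% of all CpGs outside cores, and higher at 4, beside 17.4%. At 21 CpGs, or 52.5%, there was no methylated read in either library, beside 8.56% of all shared CpGs outside cores.

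Of the genes with at least 5 shared flank CpGs, all 3 members, Neurog3, Neurod2 and Olig2, had the lower level in Dnmt3a KO, beside 92.2% of 7658 genes, and none the higher, beside 6.19%. The interval lay under 0 for 1 of the 3, beside 73.9%, and over 0 for none, beside 1.24%. None was lower by 10 percentage points, beside 60.3%. Neurog3 had 30 of 1575 methylated reads in wild type and 2 of 427 in Dnmt3a KO, Neurod2 had 8 of 173 and 3 of 123, and Olig2 had 5 of 396 and 0 of 99. With a core from 200-bp windows, Neurog3 and Neurod2 kept 2 shared flank CpGs each, under the minimum of 5. Across all genes the median flank level was 61.2% in wild type against 41.8% in Dnmt3a KO. The covered flanks of these 3 members were at 4.62% or less in wild type, where a level cannot drop by 10 percentage points. At Neurog3 several flank CpGs tied for the most reads. Of these, that at -121 had 1 of 101 methylated reads in wild type and 0 of 21 in Dnmt3a KO. That at -94 had 2 of 101 and 0 of 21, and the others had no methylated read. A flank CpG with the most reads had 2 of 109 and 0 of 17 at Olig2 (-2673). At Neurod2 it had 0 of 26 and 0 of 17 (-4879, tied with -4872), and at Atoh1 0 of 13 and 0 of 11 (-1240).

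Methylated flank CpGs existed in wild type but had mostly no partner in the other libraries. At Neurog1, a CpG at 4199 had 12 of 13 methylated reads, and at Olig1 one at -3341 had 15 of 17. At Atoh1, CpGs at -3977 and -3192 had 16 of 19 and 11 of 15, and at Neurod2 one at -3856 had 7 of 11. None of these 5 CpGs exceeded 10 reads in Dnmt3a KO or Dnmt TKO, so a change could not be measured there. Only 4 shared flank CpGs reached 20% in wild type, 2 at Neurog3 and 2 at Ascl2. They had 36 of 121 and 13 of 60 methylated reads, a difference of -8.09 percentage points (-20.3 to 5.98). Over all 99508 flank CpGs of the genome chosen in the same way, the difference was -11.8 percentage points, and choosing CpGs by their wild-type level lowers the difference by itself.

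Farther out, between 5000 and 10000 bp from the gene starts and thus outside the windows defined above, methylated CpGs were covered in both libraries. Other genes in this zone were not looked up. Its 30 flank CpGs had 404 of 1202 methylated reads in wild type, 33.6%, and 97 of 494 in Dnmt3a KO, 19.6%, differing by -14.0 percentage points (-18.2 to -9.42). Upstream of Neurog3, the CpG at -5418 had 41 of 54 methylated reads in wild type and 1 of 18 in Dnmt3a KO, with an adjusted p of 8.6e-05 by Fisher's exact test, and its neighbour at -5488 had 22 of 25 and 7 of 11. Downstream of Neurod2, 7 CpGs had 45 of 117 and 20 of 118. Downstream of Ascl2, 3 CpGs had 138 of 197 and 22 of 43. Olig1 differed from these: its 3 CpGs at 9679 to 9709 had 104 of 119 in wild type and 35 of 37 in Dnmt3a KO, differing by 7.20 percentage points with an interval that includes 0 (-6.01 to 15.4). Core sequence in this zone had 165 of 11690 and 26 of 4178 methylated reads, of which Olig2 alone held 100 of 581 in wild type and 20 of 363 in Dnmt3a KO, differing by -11.7 percentage points (-15.5 to -7.67).

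In Dnmt TKO, 3 of 5030 core reads of the 9 genes were methylated, 0.0596% (0.0203 to 0.175), with 1 read each at Neurog1, Neurog2 and Olig1. No methylated read was found at Neurog3, Neurod2, Ascl2, Olig2 and Atoh1, and 0 of 879 reads at Neurod2 allow a core level of up to 0.341%. At the 289 core CpGs covered in all 3 libraries, the pooled level was 1.06% (0.925 to 1.21) in wild type, 0.504% (0.379 to 0.669) in Dnmt3a KO and 0.0468% (0.0128 to 0.17) in Dnmt TKO, and the 3 intervals did not overlap. Neurod2 held 109 of the 206 methylated wild-type reads and 21 of the 47 in Dnmt3a KO, and Neurod1 had no such CpG. Neurog1 (0 of 755 and 3 of 578 reads) and Ascl2 (11 of 1472 and 10 of 886) were higher in Dnmt3a KO than in wild type. The other genes with such CpGs were lower. In the flank, 0 of 34 reads were methylated in Dnmt TKO, which allows a level of up to 8.82%. At the 3 flank CpGs shared with wild type, 9 of 49 and 0 of 34 reads were methylated, a difference of -18.4 percentage points (-31.4 to -5.20). At the 3′ UTR of Ascl2, where Dnmt3a KO was methylated in 57.1% to 64.3% of reads at each of 4 CpGs, all 4 were covered in Dnmt TKO without a methylated read.

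Related genes of the same regulatory circuit gave a background for the members. Of 12 other neural bHLH factors, 11 were in the annotation under their names and 9 had at least 5 shared core CpGs. The core level was lower in Dnmt3a KO at 8 of these, beside 63.8% of all genes with at least 5 shared core CpGs. It was higher at 1, beside 19.5%. The interval lay under 0 at 5, beside 18.9%. The pooled core level of the group was 2.26% in wild type against 0.868% in Dnmt3a KO, and the median over its genes 1.17% against 0.452%. In the flank, with at least 5 shared CpGs, Atoh8 had 83.5% in wild type against 72.5% in Dnmt3a KO, and Neurod6 had 35 of 250 and 8 of 111 methylated reads.

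Of the E proteins, with which the members dimerise, Tcf3 and Tcf12 were examined. Both had more of their core reads methylated in Dnmt3a KO, with intervals over 0, beside 1.78% of all genes. Tcf3 had 58 of 2744 methylated core reads in wild type and 57 of 1178 in Dnmt3a KO, differing by 2.73 percentage points (1.48 to 4.18), but as a mean over CpGs its core stood at 5.73% in wild type against 5.02% in Dnmt3a KO, in the other direction. Tcf12, named after its values were seen, had 1 of 1387 and 8 of 622, a difference of 1.21 percentage points (0.498 to 2.45). The flank of Tcf3 was lower, at 75.9% in wild type against 58.9% in Dnmt3a KO. Of the 12 inhibitors, the Id, Hes and Hey genes, 11 had at least 5 shared core CpGs. The core level was lower in Dnmt3a KO at 8 of these, beside 63.8% of all genes, and higher at 3, beside 19.5%. The interval lay under 0 at 3, beside 18.9%. Among the inhibitors with at least 5 shared flank CpGs, the largest flank differences were at Heyl, with 60.6% in wild type against 34.1% in Dnmt3a KO, at Hes5, with 5.02% and 0 of 76 reads, and at Hes3, with 5.05% and 1.87%.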

How the data were processed

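RRBS libraries had been made from MspI-digested DNA of 2 insert size ranges, with unmethylated lambda and methylated T7 DNA spiked in. Per the submitters' processing notes, Trim Galore, Bowtie and mm9 were used, and the study aligned bisulfite reads with QuasR. The study's shared account of ChIP and bisulfite read processing says that PCR duplicates were removed. Whether this held for RRBS, and whether both insert ranges were pooled, is not given in the sources used here. The authors deposited, per CpG, the count of reads and of methylated reads, and the methylated fraction, which was not used. All 1385916 listed positions on autosomes, X and Y were CG in mm9.

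CpGs with more than 10 reads were assigned to genes, and cores were taken from the sequence. Each group held 1 library, so no test between genotypes was possible. Levels, intervals and Fisher's exact tests were computed with Python 3.11 and scipy, and the code was tested on simulated data. All 9 genes are described. Of single CpGs, those called, otherwise the flank CpG with the most reads, were to be named, and others were named after their values were seen. Of related genes, at most 3 per group were named, by flank difference, and 1 gene of these lists is not reported here. The members, lists and tests were chosen with earlier results of these data known. The division into single CpG-rich stretches and fragments was likewise chosen from the data. Alternatives were another read minimum, means over CpGs, other cores and windows, removal of the CpGs with the highest coverage, unshared CpGs and other calling thresholds.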

Additional observations from a re-analysis of the deposited data

How the results depend on the processing

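Each genotype had 1 library, so counting intervals hold no variation between cultures, and the flank rests on 40 shared CpGs. No paired analysis was possible because each group has 1 library. The core difference between Dnmt3a KO and wild type was below 0 under every alternative run. It was -0.475 percentage points with core limited to 1000 bp from the gene start, where the Neurog2 difference turned from below 0 to 0.034. Without Neurod1 the core difference was -0.418, and without Neurod1, Neurod2 and Neurog3 -0.168; all values without single genes were chosen after seeing the data. The flank difference between Dnmt3a KO and wild type was -1.82 as a mean over CpGs, 2.79 with a wider core from 200-bp windows, which left 7 flank CpGs, -3.92 within 10000 bp and -2.86 with all CpGs of each library. At flank CpGs with at least 20% in wild type it was -21.0 with core limited to 1000 bp (5 CpGs). Within 10000 bp it was -26.0 (21 CpGs). It was 15.5 with 200-bp windows (3 CpGs) and 16.5 when CpGs were chosen by the mean of both libraries (2 CpGs). In both of these last settings all the CpGs were those of Ascl2. The flank difference between Dnmt TKO and wild type was -63.6 with 200-bp windows, on 1 CpG, and -0.954 with core limited to 1000 bp. It was -35.7 within 10000 bp, on 12 CpGs. With all CpGs of each library it was -5.14, with an interval that includes 0 (-6.01 to 5.04). These settings change which CpGs count as flank. The number of CpGs called lower was 1 in place of 0 with more than 20 reads and 1 within 10000 bp. Under the other alternatives, 25 of these values stayed within the interval or count reported.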
